A study of Mus musculus with 12 samples.

Results

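The proteasome subunit genes were taken as every gene whose symbol on the array's annotation is Psma, Psmb, Psmc, Psmd or Psme followed by a number. The pattern matched 43 genes, and 42 of them had at least 1 probe set (a group of short probes for 1 transcript) listed for that gene alone, among 18194 such genes on the array. The remaining gene, Psme2, which encodes the partner of Psme1 in the interferon-inducible activator ring, lies on a probe set shared with Psme2b and is not reported. The brightest probe set of each gene was used, and 40 of the 42 genes were bright enough to be tested, among 11624 tested genes. The genes below the brightness filter were Psma8, a subunit of the testis proteasome, and Psmb11, the catalytic subunit of the thymus proteasome, with signals from 4.54, the floor set on all signals, to 19.4 over the 12 arrays.

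RNA of the left ventricle of Balb/c mice aged 6 to 8 weeks was measured on 12 one-colour Affymetrix arrays in 3 models of cardiac hypertrophy and failure. Transverse aortic constriction (TAC), which narrows the aorta and so raises the load on the ventricle, was sampled at 1 day, 1 week and 1 month, each with a sham-operated control of the same time. Myocardial infarction (MI), for which the study's text gives a 30 min closure of the left coronary artery followed by reperfusion and the array labels name a coronary ligation, was sampled at 1 week and 1 month, each with a sham in which the artery was not tied. The hypertensive hormone angiotensin II (Ang II) was given to mice for 1 week by infusion, at a rate of 2.0 mg/kg/day, against a saline control. No genetic change is named for any group. Each group was 1 array, so the only replication is the 6 procedure and control pairs, and a change is the log2 ratio of the procedure array to its own control. The spread behind each p-value is that between these pairs only, which holds real differences between models and times as well as technical spread, and whether an array holds 1 animal or a pool is not stated.

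The proteasome degrades proteins that carry a ubiquitin chain. Its barrel-shaped 20S core has outer rings of alpha subunits, which gate the entrance, and inner rings of beta subunits, of which Psmb5, Psmb6 and Psmb7 carry the cutting sites. A 19S cap recognises the ubiquitin chain (Psmd4), removes it (Psmd14) and unfolds the protein with a ring of ATPases (Psmc1 to Psmc6). Interferon replaces the cutting subunits with Psmb8, Psmb9 and Psmb10, which form the immunoproteasome, a supplier of peptides to MHC class I. The ring activator of Psme1 and Psme2, the nuclear activator Psme3 and the large single-chain activator Psme4 open the core in place of the cap. In heart muscle the proteasome clears damaged and short-lived proteins, and the transcription factor Nfe2l1 is known to raise its subunit genes together when proteasome capacity falls short.

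Promoter windows of 300 bases, from 250 before to 50 after the start site, were held by RefSeq (GRCm38.p6) for 35 of the 42 genes. Psme1 and Psme4 are shown because they were the members that passed the test below, and Psmb5 as a constitutive cutting subunit. Psmb8 and Psmb9 are shown because these immunoproteasome genes varied most between arrays. Capitals mark the letters of a searched motif, and each sequence is on the strand of its gene.

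Psme1, chr14:55578493-55578522, plus strand: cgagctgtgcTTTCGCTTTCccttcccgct
Psme4, chr11:30771758-30771786, plus strand: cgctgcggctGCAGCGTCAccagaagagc
Psmb5, chr14:54618024-54618052, minus strand: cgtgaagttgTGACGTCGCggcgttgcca
Psmb8, chr17:34198088-34198116, plus strand: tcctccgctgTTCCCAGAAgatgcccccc

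In Psme1 the capitals mark the core of the interferon-stimulated response element (GAAA, NN and GAAA in a row, where N is any base, here on the opposite strand), whose first base lies at position 10 from the start site. This motif was found in 4 of the 35 member windows, those of Psmb3, Psmd4, Psmd9 and Psme1, and in 3.99% of all genes with a window. No immunoproteasome gene was among them. In Psme4 (from position -7, read on the opposite strand) and Psmb5 (from position -47) they mark the core of the antioxidant response element (TGACNNNGC), which Nfe2l1 and its small Maf partners bind. It was found in 6 member windows, those of Psmb5, Psmb6, Psmc6, Psmd12, Psmd9 and Psme4, and in 14.0% of all genes. In Psmb8 they mark the gamma-activated site core (TTCNNNGAA, from position -97), found in 2 member windows, with that of Psmd2, and in 9.55% of all genes. The CCAAT box (CCAAT) was in 14 member windows and in 41.1% of all genes. All motifs were searched on both strands, and a match is a match of letters only.

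Psmb9 lies back to back with Tap1, which encodes a subunit of the peptide transporter of MHC class I, and the whole stretch of 225 bases between their start sites is given because the signals of both genes are compared below. It is on chromosome 17, with Tap1, Psmb8 and Tap2 next in order, and reads on the minus strand towards Psmb9. The capitals mark a CCAAT box on the opposite strand, 8 bases before the Psmb9 start. No other searched motif matched in this stretch.

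Psmb9 to Tap1, chr17:34187331-34187555, minus strand: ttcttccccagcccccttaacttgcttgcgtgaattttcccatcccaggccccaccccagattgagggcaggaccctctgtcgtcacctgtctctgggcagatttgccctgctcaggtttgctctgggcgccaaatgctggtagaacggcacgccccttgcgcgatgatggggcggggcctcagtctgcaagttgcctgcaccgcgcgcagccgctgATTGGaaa

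Before scaling, trimmed mean signals of the arrays lay between 105 and 131. The arrays of TAC 1 day, Ang II 1 week and their controls stood apart from the other 8 in the 5' to 3' ratio of the array control probe dap, which was 0.377 to 0.493 on these 4 arrays and 0.195 to 0.333 on the others. They also stood apart in the MHC class I gene H2-K1, chosen here after its values were seen, with signals of 970 to 1135 against 1836 to 3170. Whether either difference bears on the results was not tested, and the main results are given with and without these 2 pairs. The cardiomyocyte genes of the left ventricle were bright on every array, with a summed signal over the 12 markers of 110474 to 140983.

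Few proteasome genes passed the test, and the share that passed lower was near that of all tested genes. Over the 6 pairs, 2 of the 40 tested members passed limma's test at an adjusted p of 0.05, both lower after the procedure, while 5.70% of all tested genes passed lower. No member passed higher, against 5.16% of all genes. In either direction 12.5% of members, 5 genes, had an unadjusted p under 0.05, against 29.0% of all genes. In bulk tissue, fewer cells of a type and less RNA per cell cannot be told apart. Without the TAC 1 day and Ang II pairs, an alternative added after the data were seen, 5 members passed in limma, all lower: Psmb3, Psmb6, Psmb7, Psme1 and Psme4. In that fit 7.70% of all tested genes passed lower.

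**Figure D1:**
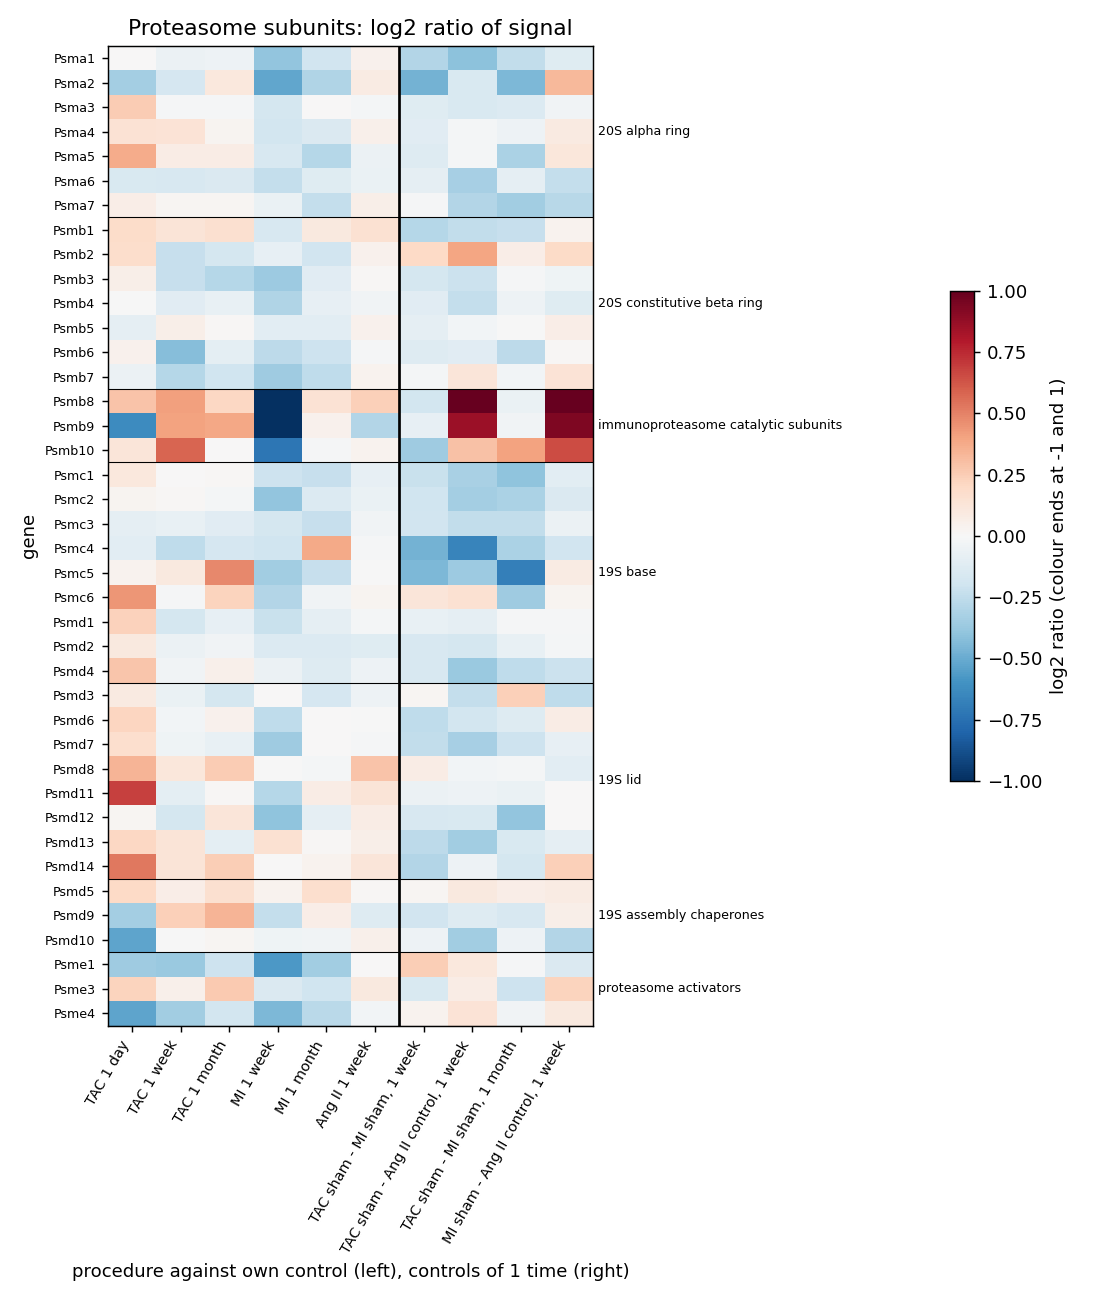
Log2 ratios of the 40 tested proteasome genes (rows, grouped by their place in the particle). The left block shows each procedure array against its own control and the right block the differences between control arrays of 1 time; colours end at -1 and 1. The activator genes Psme1 and Psme4 are blue in the TAC and MI columns. The immunoproteasome genes Psmb8, Psmb9 and Psmb10 reach the strongest colours in the left block, and Psmb8 and Psmb9 do so in the right block.

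The 2 genes that fell are both activators. Psme4 encodes the large single-chain activator that caps the core and takes part in the breakdown of acetylated histones. Its signal was 1854 after TAC 1 day against 2673 in the sham, 1984 against 2530 at 1 week of TAC, and 2227 against 2524 at 1 month of TAC. It was 1801 against 2465 at 1 week of MI, 2147 against 2587 at 1 month of MI, and 2257 against 2305 with Ang II. Every procedure array was therefore below every control array, by the least with Ang II. No other member separated the groups in this way, which 1.37% of all tested genes did, and no member lay above all controls, which 1.36% did. The mean change was -0.30 ± 0.074 (SE, n = 6 pairs) with an adjusted p of 0.0333 in limma, and control arrays of 1 time differed by at most 0.13. A second bright Psme4 probe set gave a mean of -0.28 and another -0.14, the latter with a ratio of 0.53 in the Ang II pair. With the mean of all its probe sets Psme4 did not pass (-0.19 ± 0.10, adjusted p = 0.290, limma).

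Psme1 encodes the alpha subunit of the interferon-inducible activator ring. Its signal was 1625 after TAC 1 day against 2079 in the sham, 1736 against 2251 at 1 week of TAC, and 1536 against 1777 at 1 month of TAC. After MI it was 1271 against 1897 at 1 week and 1412 against 1795 at 1 month, and with Ang II it was 2099 against 2095. The procedure array was thus lower in 5 of 6 pairs and level with its control in the Ang II pair, and the ranges of both groups overlapped. The mean change was -0.31 ± 0.077 (SE, n = 6 pairs) with an adjusted p of 0.0353 in limma, and the widest gap between controls of 1 time was 0.25. Neither gene passed when the pair of TAC 1 week, TAC 1 month, MI 1 week or MI 1 month was left out, where the adjusted p in limma was 0.0738 to 0.103 for Psme1 and 0.0692 to 0.103 for Psme4. Neither passed with the signals as deposited, with no filter on dim genes or without the intensity trend (adjusted p from 0.0995 to 0.245, limma), and Psme1 did not pass without the pair block (0.111).

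The remaining tested activator, Psme3, forms a ring found in the nucleus. Its signal ran from 295 to 397 on procedure arrays and from 281 to 339 on controls, so the groups overlapped. Its log2 ratio was 0.23, 0.05 and 0.26 in the TAC pairs, -0.15 and -0.20 in the MI pairs and 0.09 with Ang II, and its mean change of 0.05 ± 0.088 did not pass (adjusted p = 0.767, limma).

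Of the 7 alpha subunits, which form the gated outer rings, none passed. At 1 week of MI all 7 were lower than in the sham, with a median log2 ratio of -0.18, and Psma2 was the lowest at -0.52. Psma2 signals were 1544 after MI and 2211 in the sham at 1 week, and 1738 against 2136 at 1 month. With TAC they were 1988 against 2522, 1418 against 1589 and 1682 against 1563 from 1 day to 1 month, and with Ang II 1867 against 1764. The 1-week controls of Psma2 alone ranged from 1589 to 2211, a gap of 0.48, which is nearly the size of that ratio. Psma6 was lower in all 6 pairs, by ratios of -0.07 to -0.24, with a mean of -0.15 ± 0.055 (adjusted p = 0.112, limma). Psma5 had the highest TAC 1 day ratio of the alpha ring, 0.37, and was at -0.16 and -0.29 in the MI pairs.

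The 7 constitutive beta subunits did not pass either. Their median was -0.23 at 1 week and -0.10 at 1 month of TAC, and -0.26 and -0.12 at the same times of MI, beside medians of up to 0.12 in size between controls of 1 time. Psmb7, the trypsin-like cutting subunit, had signals of 3456 against 4204 and 3724 against 4272 in the later TAC pairs. In MI it was at 3323 against 4258 and 3653 against 4360. It was at 3803 against 3961 at 1 day of TAC and at 3978 against 3874 with Ang II, so it was lower in 5 of 6 pairs. Its mean change of -0.19 ± 0.066 had an adjusted p of 0.0957 in limma. Psmb6, the caspase-like cutting subunit, was also lower in 5 of 6 pairs, most at 1 week of TAC (959 against 1287, a ratio of -0.42), with a mean of -0.16 ± 0.074. Psmb5, the chymotrypsin-like subunit, stayed between 1286 and 1564 on all 12 arrays, with ratios from -0.11 to 0.06.

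The immunoproteasome genes had the widest gaps between control arrays of any class, with class medians up to 0.93 apart. Psmb8, which takes the place of Psmb5, was at 152 against 125 at 1 day of TAC, 393 against 296 at 1 week and 244 against 211 at 1 month. It was at 139 against 336 at 1 week of MI, 245 against 222 at 1 month of MI, and 146 against 124 with Ang II. The MI 1 week ratio of -1.28 was thus its only one below 0, and it set an array at 139 against a sham that was the highest of the 6 controls, which ran from 124 to 336. Controls of 1 week alone differed by up to 1.44 on the log2 scale, which was the MI sham against the Ang II control. The TAC sham of 1 week differed from the MI sham by -0.18.

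Psmb9, which takes the place of Psmb6, was at 106 against 263 at 1 week of MI and at 174 against 169 at 1 month. In TAC it was at 56.3 against 87.2, 329 against 248 and 215 against 164 from 1 day to 1 month, and it was at 112 against 138 with Ang II. Psmb10, which takes the place of Psmb7, was at 367 against 608 and 408 against 410 in MI. In TAC it was at 374 against 344, 711 against 475 and 545 against 543, and with Ang II at 397 against 387. All 3 genes were therefore higher than their sham at 1 week of TAC and lower at 1 week of MI. Their mean changes over the pairs were near 0 for Psmb8 (0.0004 ± 0.20) and Psmb10 (0.0017 ± 0.14) and -0.23 ± 0.21 for Psmb9, and none passed (adjusted p from 0.499 to 1.00, limma).

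Set against the cutting subunits they replace on the same array (Psmb5, Psmb6 and Psmb7), the immunoproteasome genes had a mean log2 ratio of 0.68 at 1 week and 0.30 at 1 month of TAC. The same quantity was -0.86 at 1 week of MI, 0.25 at 1 month of MI, -0.04 at 1 day of TAC and -0.03 with Ang II. Between controls of 1 time it was 0.81 and 0.94 where the Ang II control was one side, and -0.13 and 0.20 between the shams of the surgical series. The TAC and MI values at 1 week were therefore no larger than the widest gap between 2 control arrays, 0.94. That gap has on one side the Ang II control, which was among the arrays that stood apart above. Both values were larger in size than the gap between the surgical shams of 1 week, -0.13. With the mean of all controls of the same time in place of the own control, an alternative added after the data were seen, the value was 0.91 for TAC and -0.51 for MI at 1 week, and -0.61 for Ang II.

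Tap1, the neighbour that shares the printed stretch with Psmb9, was at 191 against 142 at 1 week of TAC and at 45.6 against 124 at 1 week of MI. It was at 93.4 against 57.2 at 1 month of MI, 104 against 94.9 at 1 month of TAC, 43.5 against 37.4 at 1 day of TAC and 44.1 against 44.7 with Ang II. On the 4 arrays of TAC 1 day, Ang II and their controls Tap1 lay between 37.4 and 44.7 and Psmb8 between 124 and 152, against 45.6 to 191 and 139 to 393 on the other 8. Psmb5 lay at 1338 to 1564 on these 4 arrays and at 1286 to 1399 on the others.

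**Figure D2:**
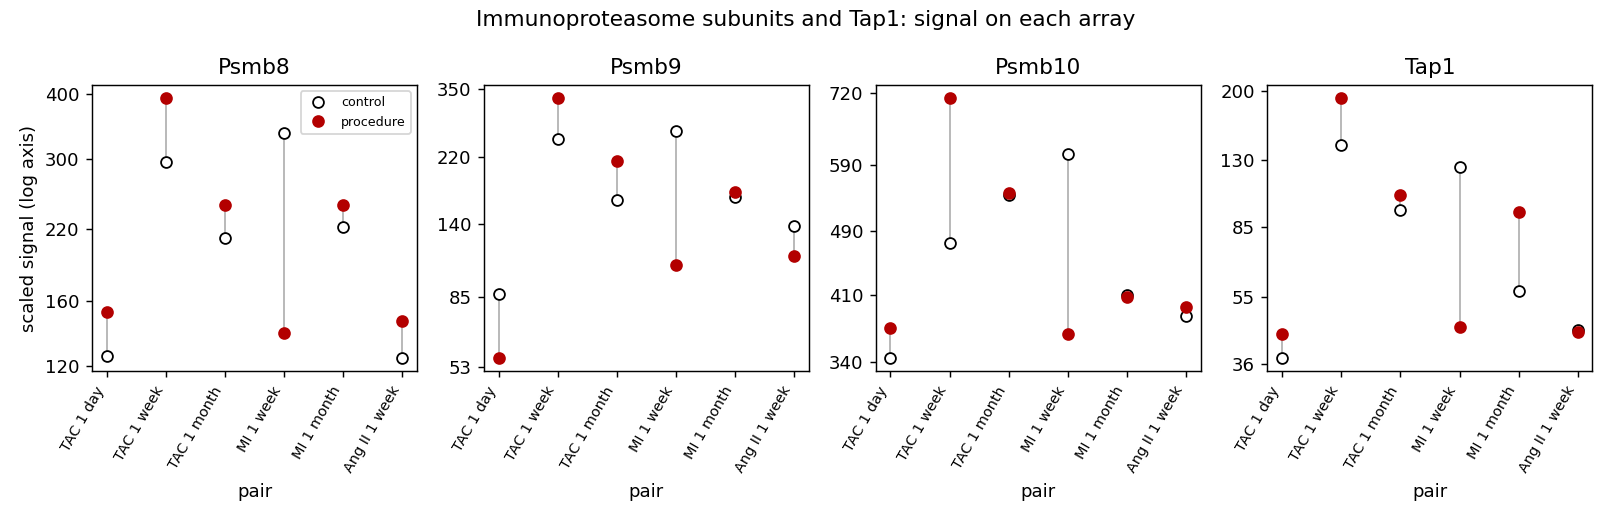
Scaled signal (log axis) of the immunoproteasome subunits and of Tap1 on each array, with open circles for controls and filled circles for procedure arrays, joined within a pair. The pairs of TAC 1 day and Ang II sit low on both arrays, and at 1 week of MI the procedure array (Psmb8, 139) lies far below a sham that is high among the controls (336).

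In the 19S base, which holds the ATPase ring with the scaffold Psmd1, Psmd2 and the ubiquitin receptor Psmd4, none of 9 genes passed. All 9 were lower at 1 week of MI (median -0.21) and 8 of 9 at 1 month (median -0.14), while controls of 1 time differed in median by up to 0.33. Psmc3 was lower in all 6 pairs, with ratios from -0.03 to -0.23 and a mean of -0.12 ± 0.058 (adjusted p = 0.206, limma). Psmc5 had the widest gap between models, at 1053 against 756 (0.48) at 1 month of TAC and 898 against 1141 (-0.35) at 1 week of MI. Its controls of 1 time differed by up to 0.69, more than either ratio. Psmc4 ran the other way at 1 month of MI, with 1320 against 1014 (0.38), and its controls differed by up to 0.66.

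The 19S lid, which holds the deubiquitinase, was the class with the highest median at 1 day of TAC. All 8 of its genes were above the sham there, with a median of 0.21 and ratios from 0.02 to 0.68. Psmd11, a lid scaffold subunit that clamps the cap to the core, was at 4050 against 2524, and its other arrays lay between 2338 and 3102. At 1 day, 3 further Psmd11 probe sets brighter than 500 gave 0.88, 0.81 and 0.35. Psmd14, the deubiquitinase, was at 1354 against 940 at 1 day of TAC, 1149 against 1054 at 1 week and 1261 against 1063 at 1 month. It was at 1294 against 1289 and 1235 against 1203 in MI and at 1186 against 1092 with Ang II, so it was higher in all 6 pairs. Its mean change of 0.18 ± 0.079 did not pass (adjusted p = 0.169, limma). Psmd8, another lid subunit, had ratios of 0.34, 0.11 and 0.26 in TAC, 0.28 with Ang II and -0.005 and -0.02 in MI, with a mean of 0.16 ± 0.073 (adjusted p = 0.177, limma).

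**Figure D3:**
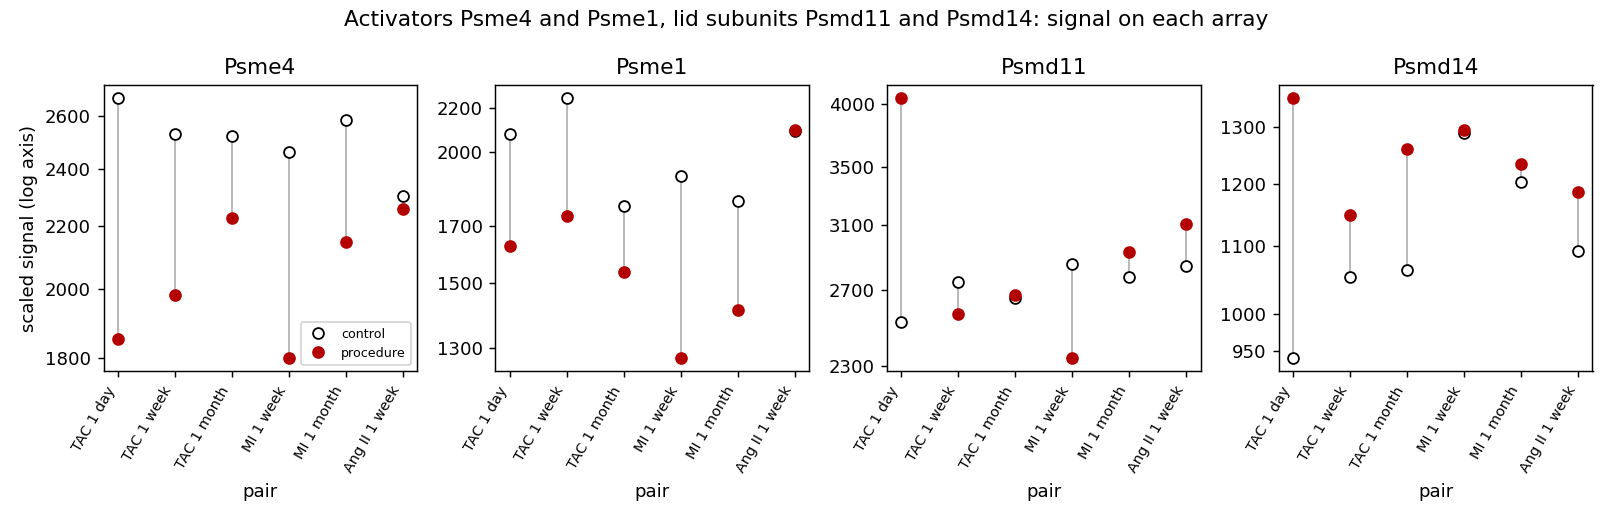
Scaled signal (log axis) of the activators Psme4 and Psme1 and of the lid subunits Psmd11 and Psmd14 on each array, with open circles for controls and filled circles for procedure arrays, joined within a pair. For Psme4 all 6 procedure arrays lie below all 6 controls, for Psme1 5 of 6 lie below their own control, Psmd11 stands out at 1 day of TAC (4050 against 2524), and Psmd14 is higher in all 6 pairs.

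The chaperones that help assemble the base, Psmd5, Psmd9 and Psmd10, held no gene that passed. Psmd10 was at 126 against 182 at 1 day of TAC (-0.53) and within 0.05 of its control in the other pairs. Psmd9 was at -0.34 in the same pair and at 0.24 and 0.34 in the later TAC pairs, from signals of 99.6 to 144. Psmd5 was higher in all 6 pairs by 0.01 to 0.20, with a mean of 0.11 ± 0.078 (adjusted p = 0.401, limma).

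Over the whole particle, the count of genes with 1 direction in all 6 pairs was 4 lower (Psma6, Psmb4, Psmc3 and Psme4) and 2 higher (Psmd5 and Psmd14). Of all tested genes 10.7% were lower and 8.67% higher in all 6.

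Read pair by pair, with no test since each side is 1 array, the median log2 ratio of the 40 genes was 0.09 at 1 day, -0.02 at 1 week and 0.01 at 1 month of TAC. It was -0.23 at 1 week and -0.11 at 1 month of MI and 0.01 with Ang II, and medians between controls of 1 time reached 0.15 in size. With the signals as deposited and no scaling, the medians were -0.063, 0.19 and 0.33 in TAC and -0.077 at 1 week of MI, so the sign at 1 day and 1 week of TAC turned. Quantile normalization gave 0.02 at 1 week of TAC, -0.15 at 1 week of MI and -0.05 at 1 month of MI. On the signals as deposited, the median of all tested genes was -0.23, 0.21 and 0.31 in TAC and 0.16 at 1 week of MI. The members on those signals were still above all genes at 1 day of TAC. They were level with all genes in the later TAC pairs and below them at 1 week of MI.

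At 1 week of MI 36 of the 40 members were lower, where 49.2% of all tested genes were, and at 1 month 28 of 40, where 49.0% were. Every one of the 17 core genes was lower at 1 week, as were 16 of 20 cap genes, and the members that were not were Psmd3, Psmd5, Psmd13 and Psmd14. Bright genes as a whole were also lower there: the 978 tested genes with a mean signal above 1000 had a median of -0.24 at 1 week of MI, with 743 of them lower, and -0.12 at 1 month. In TAC the same bright genes had medians of -0.19, -0.16 and -0.11 from 1 day to 1 month, below those of the proteasome genes. At 1 day of TAC 12 of 40 members were lower, where 55.1% of all genes and 649 of the 978 bright genes were. The counts were 23 of 40 at 1 week of TAC, 18 at 1 month of TAC and 19 with Ang II, where 50.3%, 50.4% and 51.4% of all genes were lower.

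**Figure D4:**
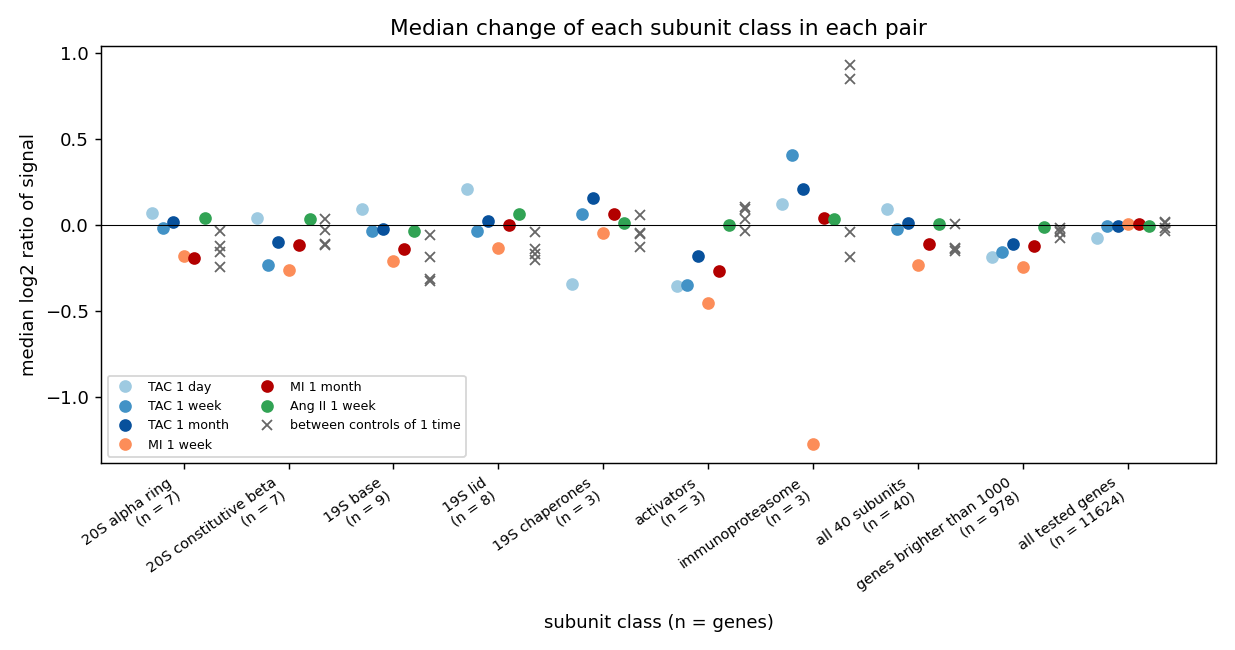
Median log2 ratio of each class of proteasome genes in the 6 pairs, with crosses for the medians between control arrays of 1 time. The activator median is below 0 in all TAC and MI pairs (-0.18 to -0.45), although the activator Psme3 was above 0 in the TAC pairs. The immunoproteasome median at 1 week of MI (-1.28) stands beside control differences of up to 0.93.

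By the count used here, large changes in single pairs were few. A gene was counted when its ratio was at least 0.5 in size and its procedure array lay outside the range of all 6 controls. At 1 day of TAC 2 members were counted higher, Psmd11 and Psmd14, against 13.3% of all genes, and 3 lower, Psmb9, Psmd10 and Psme4, against 19.9%. At 1 week of TAC 1 member was higher, Psmb10, against 7.99%, and none lower, against 4.45%. At 1 month of TAC none was higher or lower, against 7.03% and 4.88%. At 1 week of MI none was higher, against 13.7%, and 2 were lower, Psma2 and Psme1, against 8.83%. The larger falls of Psmb9 (-1.31), Psmb8 (-1.28) and Psmb10 (-0.73) in this pair were not counted, because a control lay lower still. That control was the TAC 1 day sham for Psmb9 (87.2) and Psmb10 (344) and the Ang II control for Psmb8 (124). At 1 month of MI (7.85% of all genes higher and 4.48% lower) and with Ang II (3.41% and 2.99%) no member was counted.

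Fitted by model, no member passed in TAC alone (3 pairs), where 2.34% of all genes did, and the lowest adjusted p of a member was 0.0955 in limma, for Psme4. None passed in MI alone (2 pairs), against 0.981% of all genes, with 0.101 for Psme1 as the lowest. At an unadjusted p under 0.05, 4 members were called in TAC (Psmd14, Psmd8, Psme1 and Psme4) and 6 in MI (Psma1, Psma2, Psmb7, Psmc2, Psme1 and Psme4), against 21.6% and 17.3% of all genes. With Ang II, 0 members and 0.00% of all genes passed in limma, and 0 members had an unadjusted p under 0.05, against 2.44% of all genes.

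Of the 40 members, 38 had a higher ratio in TAC than in MI, against 43.8% of all tested genes, with a median difference of 0.19 against -0.04. The exceptions were Psmc4 and Psmd10. In 8 members all 3 TAC ratios were above 0 and both MI ratios below 0, as in 2.07% of all genes, and no member showed the reverse, as 2.33% did. No gene of the array passed the test of that difference in limma (0.00% of all genes, lowest adjusted p 0.663). The lowest adjusted p of a member was 0.983, and 2 members, Psma5 and Psmc5, had an unadjusted p under 0.05, against 4.53% of all genes. At the times that both models share, the median gap over the members was wider between the shams than between the procedure arrays. The immunoproteasome genes went the other way at 1 week. Their TAC shams differed from the MI shams by -0.18 (Psmb8), -0.08 (Psmb9) and -0.36 (Psmb10). In the same order, the procedure arrays of TAC and MI were at 393 against 139, 329 against 106 and 711 against 367. The TAC sham was below the MI sham in 33 of 40 members at 1 week (median -0.14) and in 36 of 40 at 1 month (median -0.13). Of all tested genes 47.6% and 48.1% were lower in the TAC sham at these times, with medians of 0.018 and 0.015. The procedure arrays themselves differed by a median of 0.05 at 1 week, with TAC higher in 23 of 40 members, and by -0.02 at 1 month, with TAC higher in 18, while 50.3% and 49.8% of all tested genes were lower in TAC. With the mean of all controls of the same time in place of the own sham, the member medians at 1 week were -0.16 for TAC and -0.16 for MI, and at 1 month -0.08 and -0.04.

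**Figure D5:**
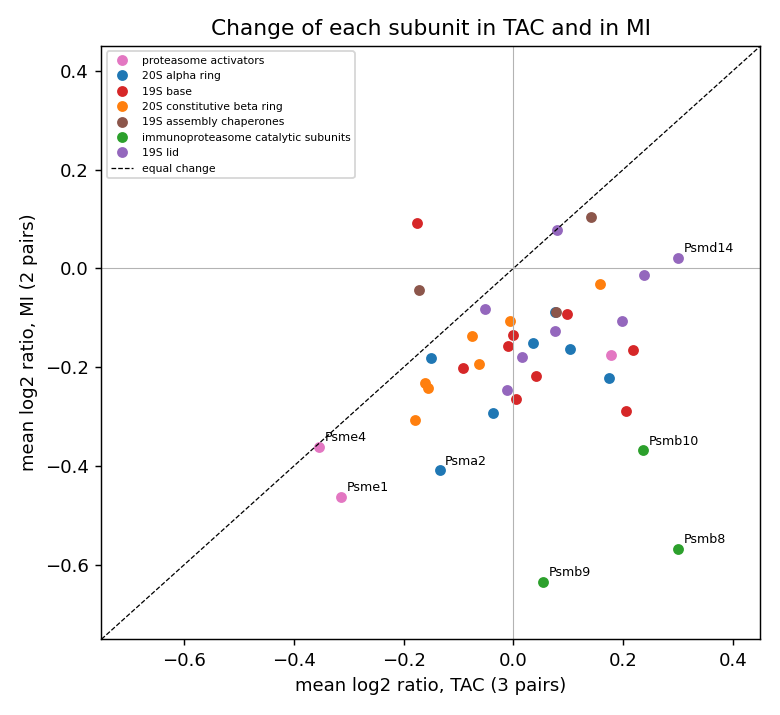
Mean log2 ratio of each tested proteasome gene over the 2 MI pairs (vertical) against that over the 3 TAC pairs (horizontal), coloured by class, with a dashed line of equal change. Points lie below the line for 38 of 40 genes, furthest for the immunoproteasome genes Psmb8, Psmb9 and Psmb10, and Psme4 lies close to it.

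Genes around the proteasome were read from lists of known members. None of 15 tested assembly and associated factors passed. The largest mean changes there were -0.27 ± 0.10 for Psmg1, -0.23 ± 0.093 for Ecpas and 0.13 ± 0.095 for Zfand2a. Of 12 tested transcription factors of proteasome genes and their processing enzymes, Mafk, a small Maf partner of Nfe2l1, rose by 0.48 ± 0.13 (adjusted p = 0.0407, limma). It was higher in all 6 pairs and most at 1 day of TAC, at 520 against 246. Nfe2l1 itself had a mean of -0.02 with controls of 1 time up to 0.64 apart, Maff was at 0.85 ± 0.30 (adjusted p = 0.0931, limma) and Keap1, which holds Nfe2l2 in check, at -0.30 ± 0.12.

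Among 13 genes of ubiquitin supply and transfer, the conjugating enzyme Ube2d2a fell by 0.31 ± 0.085 on the log2 scale (adjusted p = 0.0476, limma), with controls of 1 time up to 1.10 apart, and none rose. The next largest means were 0.26 for Ube2d3 and -0.22 for Ube2d1, neither of which passed. Among 11 muscle ubiquitin ligases, which mark sarcomere and other proteins for the proteasome, Ubr2 fell by 0.38 ± 0.10 (adjusted p = 0.0414, limma) and none rose. Fbxo30 had a mean of 0.29 ± 0.089 and Trim63, the ligase of myosin breakdown, of -0.27 ± 0.086, with signals of 1232 against 1821 at 1 week of MI.

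The 10 tested MHC class I genes, which use the peptides of the immunoproteasome, held no gene that passed. Their medians of 0.24 at 1 week of TAC and -0.60 at 1 week of MI ran on the same side as those of the immunoproteasome, beside medians of up to 0.64 between controls. Erap1, B2m and H2-M3 had the largest means, at -0.14, -0.13 and -0.12. Of 16 interferon genes, Ifngr1, a chain of the gamma-interferon receptor, rose by 0.36 ± 0.084 (adjusted p = 0.0270, limma) and none fell. Their medians were 0.38 at 1 week of TAC and -0.71 at 1 week of MI, with control medians up to 0.71 apart. In the latter pair 12 of the 16 were below the sham. Of the genes with the largest mean changes, the interferon-induced GTPases Igtp and Iigp1 were at 152 against 1630 and at 361 against 3016 at 1 week of MI, and their controls of 1 week differed by up to 2.84 and 2.38 on the log2 scale. The other, the transcription factor Irf8, was at 150 against 76.5 there, with a mean of 0.47 ± 0.14 (adjusted p = 0.0578, limma).

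Markers of other cells moved with the procedures. Of 14 macrophage and leukocyte markers 10 rose and none fell, with a summed signal of 4259 to 7225 on controls and 4763 to 15487 on procedure arrays, highest at 1 week of MI, where the median was 1.21 and that of the immunoproteasome genes -1.28. Of 9 fibroblast markers 7 rose and none fell, with sums of 12209 to 16371 on controls and 16671 to 42518 on procedure arrays. Of 5 tested proliferation markers 4 rose (sums of 77.5 to 269 on controls and 141 to 821 on procedure arrays). The 4 tested neutrophil markers had medians of 2.71 at 1 day of TAC and 2.63 at 1 week of MI, with no call. At 1 week of TAC all 4 were below the sham (median -1.13), and the other pairs had medians of 0.54 to 1.63. Control medians of 1 time differed by up to 2.48. Sums over the 5 neutrophil markers on the array were 73.3 to 375 on controls and 78.0 to 1486 on procedure arrays. No T, NK or B cell marker on the array was bright enough to be tested, the highest signal of the 11 being 39.4. None of 9 endothelial markers passed, with sums of 3200 to 4595 on controls and 3566 to 3991 on procedure arrays. Of 12 cardiomyocyte markers, Ryr2 and Pln fell and none rose, with sums of 127734 to 140983 on controls and 110474 to 135809 on procedure arrays. Their part in the falls of Psme1 and Psme4 was not tested.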

How the data were processed

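The authors deposited a linear intensity per probe set and array, made with GCOS per the submitters' processing notes. Its version, signal algorithm and scaling were not given in the sources used here. Per the labels, 5 µg of total RNA was the input of each array, and the number of arrays limits the precision. From these intensities, signals were scaled to a common 2% trimmed mean (factors from 0.872 to 1.09), raised to the 20th percentile (4.54) where below it, and log2 was taken. A gene's value is that of its brightest probe set among those listed with 1 symbol (34958 of 45101 probe sets; 932 had several and 9211 were not listed). Genes with a mean above the 40th percentile (a signal of 18.1) were tested.

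All 11624 genes were fitted with limma 3.58.1 (R 4.3.3, statmod 1.5.0). Pairs entered as blocks, the prior variance followed a trend over intensity, and p-values were adjusted by Benjamini-Hochberg with a threshold of 0.05. The fit over the 6 pairs had 5 residual degrees of freedom. The fit by model, with an effect each for TAC, MI and Ang II, had 3, and it takes the spread of the single Ang II pair from the other pairs. Each control was matched to its series through the sample titles. The array labels give the 1 day harvest to TAC and the study's text gives it to MI; the array labels were used. The fit was tested on simulated data.

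The members, lists and tests were chosen with earlier results of these data known. All members may be named; from each pathway list, the text names the genes that passed, the 3 with the largest mean change, Tap1 and Nfe2l1, and others are marked as chosen after their values were seen. Of the marker lists, counts and sums are given with the genes that fell. Promoter sequences and start sites are RefSeq's (GRCm38.p6). Alternatives covered scaling, floor, probe set, filter, fold limit, pairs, block and trend.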

Additional observations from a re-analysis of the deposited data

Results flagged for a closer look

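Of the 40 tested members, 8 had a log2 ratio above 0 in all 3 TAC pairs and below 0 in both MI pairs, a pattern that 2.07% of all tested genes showed, and no member showed the opposite, which 2.33% of all tested genes did. The TAC minus MI difference was 0.27 for Psma4, 0.40 for Psma5 and 0.19 for Psma7 in the alpha ring, and 0.60 for the immunoproteasome subunit Psmb10. It was 0.26 for Psmc1 and 0.49 for Psmc5 in the ATPase ring, 0.25 for the lid subunit Psmd8 and 0.35 for the nuclear activator Psme3. The sign of these differences follows from the rule that picked the genes, and some ratios were near 0. Psmd8 was at -0.005 and -0.02 in MI, and Psmc1 at 0.004 and 0.01 in the later TAC pairs. Psmb10 was at 0.006 at 1 month of TAC and -0.009 at 1 month of MI. None of the 8 passed limma's test of that difference (adjusted p = 0.983 for each). The TAC sham was above the MI sham for Psmb10 at 1 month (0.40) and for Psmd8 at 1 week (0.08). In the other comparisons of these 8 genes it was below, from -0.01 (Psma7, 1 week) to -0.69 (Psmc5, 1 month). The part of these gaps in the pattern was not tested.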

How the results depend on the processing

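A median or difference was counted as moved when it shifted by more than the root mean square of the same value between controls of 1 time (0.12 for the member median, 0.63 for the immunoproteasome against the constitutive subunits), and a count when it changed by over 1.5 times. By these wide limits 43 counts and medians moved and 16 calls of Psme1 or Psme4 were lost. The count of 2 members over the 6 pairs (10.9% of all genes passed in either direction) was 0 as deposited (6.88%), with no filter on dim genes (0.00%) and without the intensity trend (2.07%). Averaging all probe sets of a gene gave 1 (Psme1, 6.44%) and dropping the pair block 1 (Psme4, 4.07%). It ran from 0 to 3 when 1 pair was left out: 2 without TAC 1 day (10.8%), 3 without Ang II (12.8%), and 0 without any of the other 4 pairs (2.20% to 2.54%). It was 5 without TAC 1 day and Ang II together (15.3%). Adjusted p-values over these settings in limma ran from 0.00948 to 0.212 for Psme1 and from 0.0124 to 0.290 for Psme4. With no pair block 1 member passed in TAC (Psme4, 7.12%) and 1 in MI (Psme1, 6.41%). Leaving out 1 pair gave 0 to 4 members in MI, with 4 without TAC 1 day (Psma2, Psmb7, Psme1 and Psme4, 12.9% of all genes), and 4 also without TAC 1 day and Ang II together (12.9%). No paired analysis by replicate number was possible because each group holds 1 array; pairing was by series and time.

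Member medians as deposited were -0.063, 0.19 and 0.33 in TAC from 1 day to 1 month and -0.077 and -0.054 in MI. Quantile normalization gave 0.018 at 1 week of TAC, a turned sign, and -0.15 and -0.053 in MI. Centring on the median turned the TAC 1 month value to -0.028 and gave -0.34 and -0.17 in MI. With the mean of all controls of the same time, TAC was at -0.16 at 1 week and -0.078 at 1 month. The immunoproteasome difference at 1 day of TAC turned from -0.039 to 0.28 with the mean of all probe sets, and with Ang II went from -0.030 to -0.61 with the mean of all controls. The cause was not tested.

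At a fold limit of 0.3, 5 members were higher and 5 lower at 1 day of TAC (18.2% and 27.0% of all genes), 3 and 3 at 1 week of TAC (13.4% and 10.8%), 10 lower at 1 week of MI (16.9%) and 1 lower at 1 month of MI (9.70%). At a limit of 1 no member was counted in these pairs (0 higher, 0 lower). Psmb8 and Psmb9 were past that limit at 1 week of MI but inside the range of the controls. As deposited, 1 member was higher at 1 day (1168 of 11625 genes), 3 at 1 week (17.9%) and 5 at 1 month of TAC (22.1%), and 0 lower at 1 week of MI (4.42%). Quantile normalization gave 0 lower at 1 week of MI (10.3%), and centring 5 there (13.9%) and 1 lower at 1 day of TAC (18.1%). The mean of all probe sets gave 2 higher and 2 lower at 1 week of TAC (8.06% and 4.49%), and 6 lower at 1 week (8.59%) and 3 at 1 month of MI (4.67%). With no filter, which adds Psma8 and Psmb11, 1 was higher at 1 month of TAC (7.64%), 1 lower at 1 month of MI (4.13%) and 1 higher with Ang II (6.22%).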

Other observations

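Where a member had several bright probe sets, they could be set side by side. In 11 members with more than 1 probe set of a mean signal above 500, 14 dimmer probe sets were compared with the brightest of their gene in the 6 pairs. The 84 log2 ratios differed by a median of 0.10 in size and by at most 0.61, for Psmd11 at 1 month of TAC. Means over the 6 pairs differed by at most 0.16, for Psme4. For Psme4 the mean change was -0.30 on the brightest probe set and -0.19 over all its probe sets, dim ones included (adjusted p of 0.0333 and 0.290 in limma).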
